A study of Homo sapiens with 9 samples.

Results

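The 51 genes described here drive or carry out the cell division cycle: 18 act in DNA replication, 17 are cyclins, cyclin-dependent kinases (CDKs), CDK inhibitors, E2F factors and RB1, and 16 act in mitosis or are markers of it. They were taken by name from the 57500 genes counted in each library, and were chosen with earlier results of these data known. A filter on low counts kept 16672 genes and 50 of the 51 members. CCND2, which encodes cyclin D2, did not pass it. The libraries were 3 of parental BJAB cells (control), 3 of BJAB cells given the long isoform of TACI (TACI long) and 3 of BJAB cells given its short isoform (TACI short), all unstimulated. BJAB is an established B-cell line of human origin, labelled as Burkitt lymphoma. TACI, the product of TNFRSF13B, is a B-cell receptor for the cytokines BAFF and APRIL. Polyadenylated RNA of sorted cells was sequenced. The titles describe stable transfection and the design text transduction. The promoter that drives the isoform, and whether each line is 1 clone, are not given in the sources used here. The labels do not say that replicates were separate cultures. The p-values therefore rest on a spread between libraries that may be technical.

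In dividing cells, CDK4 and CDK6 with D-type cyclins, and then CDK2 with E-type cyclins, phosphorylate RB1, and E2F factors released from it turn on the genes of DNA replication. Origins are licensed by ORC, CDC6 and CDT1, which load the ring of MCM proteins, and ribonucleotide reductase, thymidylate synthase and thymidine kinase supply the nucleotides. Later, FOXM1 and the MYBL2 complex turn on the mitotic genes, while CDK inhibitors such as p21 (CDKN1A), p27 (CDKN1B) and p18 (CDKN2C) hold the kinases in check. Malignant B-cell lines such as BJAB divide continuously, so that RNA of both gene waves is read from an unsynchronised population.

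The promoters were read for sequence features known from cell cycle genes: E2F-type sites, described for replication genes, the cell cycle homology region (CHR), described for mitotic genes, and CCAAT boxes. RefSeq promoters of build GRCh38.p14, from 250 bases before to 50 bases after a listed start, were found for 42 of the 51 members (56 promoters). They were searched on both strands for 3 kinds of letters. The E2F-type letters were TTTCCCGC, TTTGGCGC, TTTCGCGC and TTTGCCGC, the CHR letters TTTGAA, and the CCAAT letters CCAAT. MCM6, PCNA and E2F2 are shown for the first wave, PLK1, CCNB2 and MKI67 for the second, and CDKN1B because its RNA moved in opposite directions in the 2 TACI lines. Each line gives the 160 bases before the start, 5′ to 3′ on the strand of the gene, with every match to any of the 3 kinds in capitals. Adjacent or overlapping matches run together.
MCM6: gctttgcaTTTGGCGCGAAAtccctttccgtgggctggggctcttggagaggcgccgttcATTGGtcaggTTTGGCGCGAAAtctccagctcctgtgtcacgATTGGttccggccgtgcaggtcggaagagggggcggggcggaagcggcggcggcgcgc
PCNA: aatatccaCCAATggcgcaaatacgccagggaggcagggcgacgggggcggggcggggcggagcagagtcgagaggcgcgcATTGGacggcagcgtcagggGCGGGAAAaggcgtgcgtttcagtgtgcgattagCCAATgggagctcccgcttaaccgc
E2F2: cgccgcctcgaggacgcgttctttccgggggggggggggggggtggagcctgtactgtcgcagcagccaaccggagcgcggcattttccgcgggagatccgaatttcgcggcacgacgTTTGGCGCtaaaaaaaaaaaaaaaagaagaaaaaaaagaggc
PLK1: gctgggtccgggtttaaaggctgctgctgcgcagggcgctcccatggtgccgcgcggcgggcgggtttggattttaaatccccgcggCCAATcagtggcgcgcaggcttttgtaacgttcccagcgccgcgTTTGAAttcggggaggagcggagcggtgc
CCNB2: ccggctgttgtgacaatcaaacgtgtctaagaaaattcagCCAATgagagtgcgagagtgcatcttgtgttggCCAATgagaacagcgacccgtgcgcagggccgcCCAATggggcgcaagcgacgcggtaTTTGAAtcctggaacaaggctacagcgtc
MKI67: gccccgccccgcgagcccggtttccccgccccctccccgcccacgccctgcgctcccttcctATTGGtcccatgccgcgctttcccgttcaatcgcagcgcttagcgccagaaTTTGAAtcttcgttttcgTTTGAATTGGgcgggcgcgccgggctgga
CDKN1B: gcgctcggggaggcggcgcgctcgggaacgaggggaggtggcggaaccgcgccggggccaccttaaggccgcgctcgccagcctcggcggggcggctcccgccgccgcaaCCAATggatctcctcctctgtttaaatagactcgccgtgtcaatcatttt
MCM6 (chr2:135876444-135876603, minus strand) held 4 E2F-type matches, at 152, 148, 90 and 86 bases before the start, because each of its 2 sites reads as a match on both strands. PCNA (chr20:5126623-5126782, minus strand; 1 of its 2 listed starts) held 1, at 59 bases before the start, and E2F2 (chr1:23531234-23531393, minus strand) held 1, at 42 bases before it. In PLK1 (chr16:23678729-23678888, plus strand) and CCNB2 (chr15:59104986-59105145, plus strand) a CHR match lay 29 bases before the start, preceded by 1 and 3 CCAAT matches. MKI67 (chr10:128126424-128126583, minus strand) held CHR matches 47 and 29 bases before the start, and the second runs into a CCAAT match. CDKN1B (chr12:12717208-12717367, plus strand) held 1 CCAAT match, 50 bases before the start, and no match of the other 2 kinds in the printed stretch.

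Across the members, E2F-type and CHR letters split by role and CCAAT letters did not. E2F-type letters were present in 43.5% of the promoters of replication members (10 of 16 genes), 4 of 20 of those of regulators and 7.69% of those of mitotic members. They were present in 3.31% of all 35116 promoters in the table and 4.83% of promoters of tested protein-coding genes. CHR letters were present in 61.5% of the promoters of mitotic members (8 of 12 genes), 3 of 20 of those of regulators and 4.35% of those of replication members. The share of all promoters was 15.2%. CCAAT letters were present in 78.3% of the promoters of replication members, 76.9% of those of mitotic members and 10 of 20 of those of regulators. The share was 67.9% of all member promoters and 34.6% of all in the table. A match is a description of the letters, not a measured site. CCND2, CCNE2, CDK2, MCM4, MCM5, AURKA, FOXM1, BIRC5 and TTK were not in the promoter table.

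**Figure D1:**
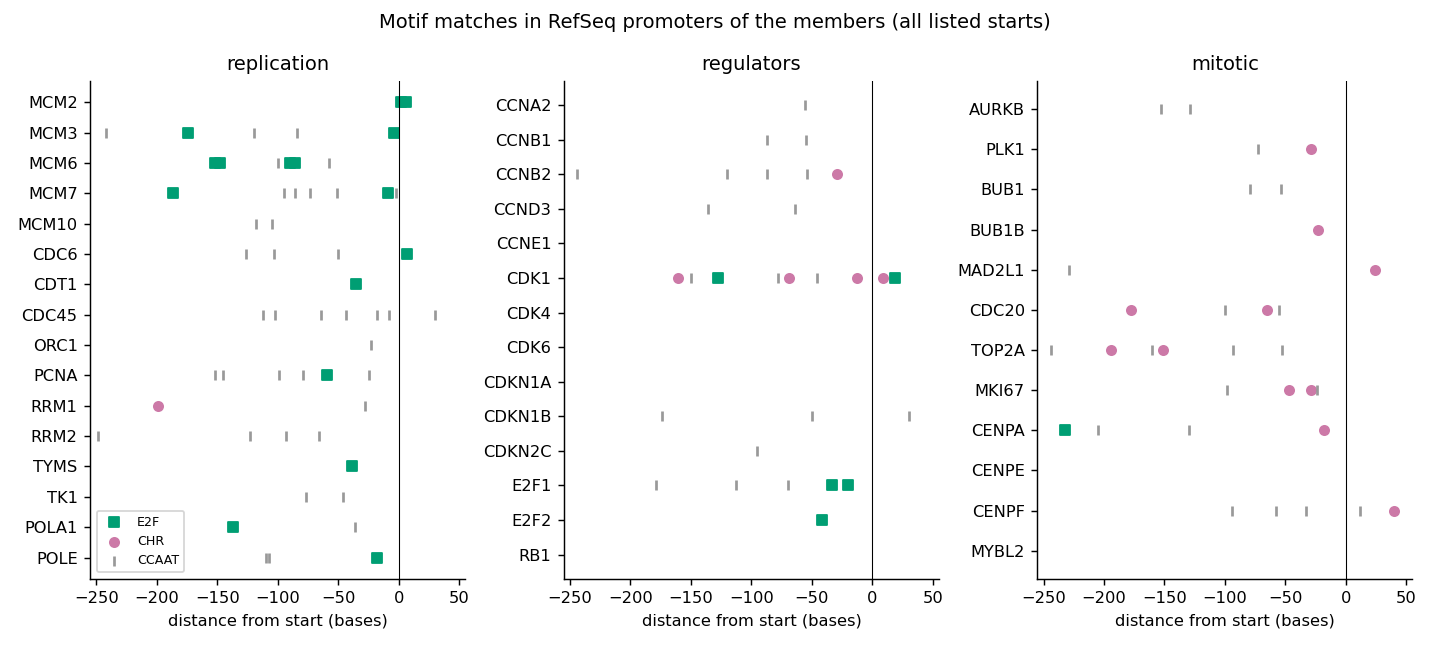
Position of each match by gene and role, in bases from the listed RefSeq start (horizontal axis, 0 is the start), for the 42 members with a promoter; squares are E2F-type, circles CHR and ticks CCAAT matches. Squares lie mostly in the replication panel (10 of 16 genes) and circles mostly in the mitotic panel (8 of 12 genes).

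Total counts per library ran from 40322136 to 50079203, so that a level of 1 CPM, a count scaled to the library total, stood for 40 to 50 counts. TACI short replicates 2 and 3 had a count for 32882 and 32209 genes, the other 7 libraries for 24307 to 25938. TNFRSF13B had 14.6 to 28.8 CPM in control, 691 to 738 in TACI long and 2650 to 2970 in TACI short, above control in both lines labelled with TACI. Isoform and amount of TACI RNA differ together. The summed level of 6 B-cell markers was 3681 to 3807 CPM in control. It was 3275 to 3313 CPM in TACI long and 2963 to 3098 in TACI short, without overlap of the groups. A sum of 11 myeloid markers was 11.5 to 28.86 CPM in 7 libraries and 125.0 and 121.1 CPM in TACI short replicates 2 and 3. CPM values below are counts over the library total, while fold changes are fitted with TMM scaling factors, which place a log2 fold change involving TACI short 0.13 below the one that plain CPM gives. With library totals alone the median log2 fold change of all tested genes in TACI short against control was 0.15 and as fitted it was 0.03. Directions in TACI short are given on the fitted scale. In bulk RNA, fewer cells in a phase and less RNA per cell cannot be told apart.

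As plain CPM, without TMM factors, the summed regulators and mitotic genes were higher in both TACI lines than in control cells. Summed replication genes were higher in TACI long and lower in TACI short. RRM1 and RRM2 enter the replication sums with means of 454 and 491 CPM in control and 588 and 700 in TACI long. On the fitted scale the median log2 fold change in TACI short was 0.05 for regulators, 0.09 for mitotic and -0.27 for replication members. The medians in TACI long were 0.18, 0.16 and -0.02 in the same order. In TACI long, 25 of the 50 tested members rose and 7 fell (edgeR quasi-likelihood test, Benjamini-Hochberg adjusted p under 0.05). That is 64.0% called, against 51.1% of all tested genes, of which 25.2% rose and 25.9% fell. In TACI short, 14 members rose and 20 fell. That is 68.0% called, against 62.6% of all tested genes, of which 31.5% rose and 31.1% fell. The median log2 fold change of the members was 0.11 in TACI long (all genes 0.00) and 0.00 in TACI short (all genes 0.03). Both comparisons use the same 3 control libraries. With upper-quartile factors the higher count in TACI short was 26 and with library totals 28, and without control replicate 2 it was 9. The same change of scaling moved the calls over all genes from 5256 higher and 5179 lower to 6320 and 4330 (upper quartile) and to 6862 and 3779 (library totals). In TACI short, 13 of the 50 members had both signs over the fits tried: AURKA, AURKB, CCNB1, CCNE1, CDK2, CDKN1A, CENPA, FOXM1, RB1, RRM1, TK1, TTK and TYMS.

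The sizes were small for most members. In TACI long 4 of the 50 were called and at least 1.5-fold changed (17.5% of all genes), and in TACI short 3 were (26.2% of all genes). Groups of CPM values did not overlap for 39 members in TACI long (60.7% of all genes) and 43 in TACI short (66.4% of all genes). Replication members summed to 5995 to 6152 CPM in control, 6362 to 6452 in TACI long and 5491 to 5751 in TACI short. Mitotic members summed to 3556 to 3622 CPM in control, 4008 to 4120 in TACI long and 4144 to 4297 in TACI short. Regulators summed to 2228 to 2293, 2581 to 2629 and 2510 to 2534 CPM in the same order. In each role these plain CPM sums of the 3 groups do not overlap. The mitotic sums were highest in TACI short, while the fitted median of mitotic members was -0.17 in TACI short against TACI long. MKI67 enters the mitotic sums with a mean of 133 CPM in TACI long and 510 in TACI short. Sums without MKI67 are not given here. Sums with TMM factors are not given here. All 51 genes together took 1.19% ± 0.0098 of counts in control and 1.31% ± 0.0125 in TACI long. In TACI short the share was 1.23% ± 0.0211 (SD, n = 3).

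**Figure D2:**
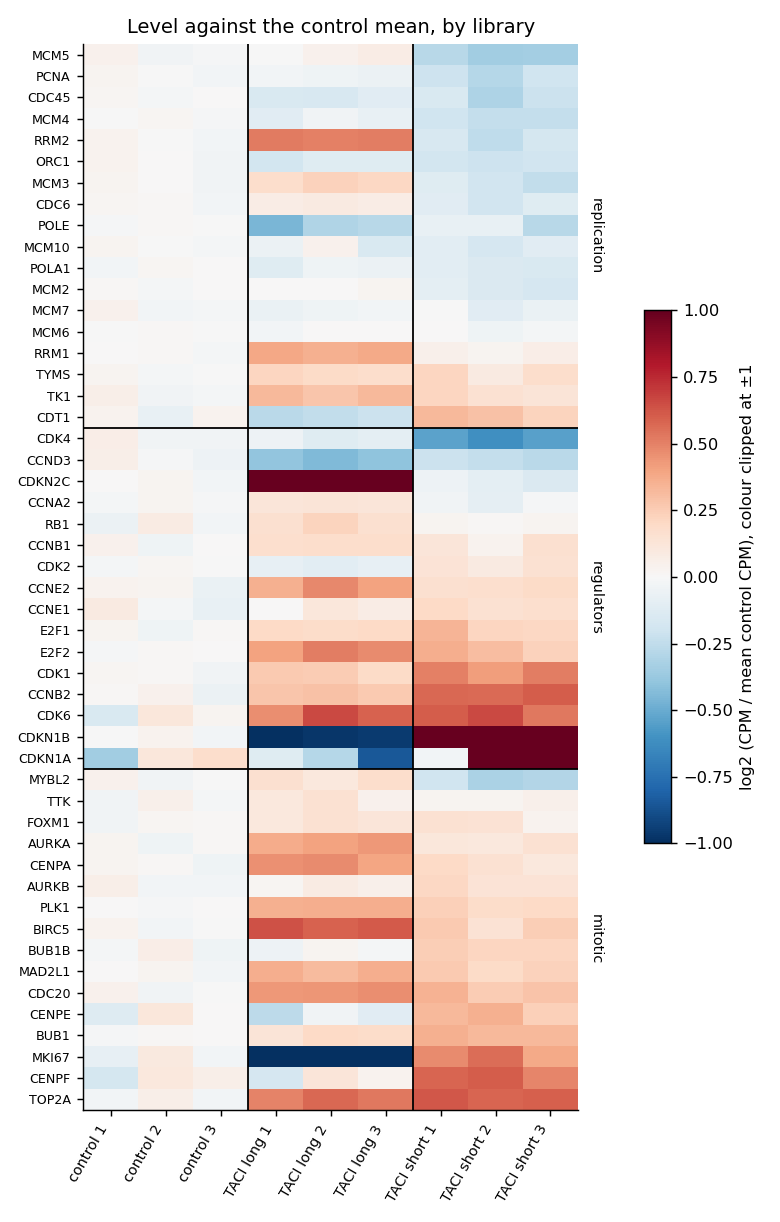
Each row is 1 of the 50 tested members and each column 1 library; colour is log2 of CPM over the mean control CPM, without TMM factors, clipped at ±1. The replication rows are mostly blue in the 3 TACI short columns, CDKN2C, CDKN1B and MKI67 reach the ends of the scale in TACI long, and CDKN1A does so in TACI short replicates 2 and 3 but not in replicate 1.

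Per exon length, the most abundant members in control cells were PCNA, the sliding clamp of DNA polymerase, at 1280 TPM (a count per exon length, scaled to the library), MYBL2 at 987, MCM7 at 681 and TK1 at 631. The least abundant tested members were CCNE2 at 16.1 TPM, CDKN1A at 17.0, POLE at 19.4 and CCNE1 at 24.5. CCND2 had 2 counts over the 3 controls, 1 over TACI long and 9 over TACI short, so its level was at or near 0 in every library.

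In TACI short cells the replication machinery was lower nearly throughout. Of 18 replication members 14 fell and 1 rose, where 31.1% of all tested genes fell, and their median log2 fold change was -0.27. The fallen genes covered 6 of 6 subunits of the MCM2 to MCM7 helicase, the loaders CDC6 and ORC1, the helicase cofactors CDC45 and MCM10, the clamp PCNA, the polymerase subunits POLA1 and POLE, and RRM2. The changes were modest, from -0.15 for MCM6 to -0.45 for MCM5. With upper-quartile factors 14 fell and 3 rose (median -0.19), and with library totals 11 fell and 3 rose (median -0.14). Without TACI short replicates 2 and 3, which leaves 1 TACI short library, the median was -0.19. With library totals the calls of MCM6 and MCM7 were among those lost (edgeR adjusted p = 0.468 and 0.0909). Without TACI short replicates 2 and 3 their log2 fold changes were -0.09 and -0.1.

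MCM5, a subunit of the replicative helicase (ENSG00000100297, hg38 chromosome 22, 35400063 to 35425430, plus strand), stood at 523, 494 and 502 CPM in control, 506, 522 and 533 in TACI long and 418, 397 and 399 in TACI short. All 3 TACI short values lie below the lowest control value, and the TACI long values overlap the controls. Its log2 fold change was -0.45 ± 0.05 (SE, edgeR adjusted p = 1.08e-08) in TACI short and 0.04 ± 0.05 (SE, edgeR adjusted p = 0.498) in TACI long. MCM2, another subunit, stood at 530, 520 and 529 CPM in control, 527, 529 and 535 in TACI long and 492, 477 and 468 in TACI short. TACI short was again below every control library (log2 fold change -0.26 ± 0.04 SE, edgeR adjusted p = 9.84e-06), while TACI long differed from control by 0.01 ± 0.04 (SE, edgeR adjusted p = 0.844). MCM4 stood at 856, 869 and 851 CPM in control, 795, 838 and 816 in TACI long and 748, 727 and 728 in TACI short, and its 3 TACI short values were the lowest of the 9 (-0.35 ± 0.04 SE, edgeR adjusted p = 1.4e-07). PCNA stood at 548, 537 and 528 CPM in control, 527, 523 and 517 in TACI long and 467, 441 and 469 in TACI short. It was lower in each TACI short library than in each library of the other groups, with a log2 fold change of -0.36 ± 0.04 (SE, edgeR adjusted p = 3.06e-07). CDC45, which joins MCM and GINS in the active helicase, stood at 95.3, 92.9 and 94.5 CPM in control, 84.8, 84.4 and 87.2 in TACI long and 85.0, 76.2 and 81.4 in TACI short (-0.35 ± 0.05 SE, edgeR adjusted p = 2.38e-06 in TACI short). MCM6 stood at 262, 265 and 262 CPM in control, 258, 263 and 263 in TACI long and 263, 255 and 259 in TACI short. Its CPM groups overlap although the fitted log2 fold change in TACI short was -0.15 ± 0.04 (SE, edgeR adjusted p = 0.00293).

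CDT1, which loads MCM rings and is normally held in check outside its licensing window, was the 1 replication member called higher in TACI short. It stood at 162, 150 and 162 CPM in control, 131, 133 and 136 in TACI long and 198, 194 and 184 in TACI short. TACI short was above and TACI long below every control library. The log2 fold change was 0.16 ± 0.05 (SE, edgeR adjusted p = 0.00609) in TACI short and -0.24 ± 0.05 (SE, edgeR adjusted p = 0.000153) in TACI long. Leaving out control replicate 2 ended the call in TACI short (adjusted p = 0.171).

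In TACI long cells the replication members did not move as a block. Of 18, 5 rose and 4 fell, and their median log2 fold change was -0.02. These shares, 27.8% and 22.2%, are near the 25.2% and 25.9% of all tested genes. The 5 that rose were MCM3 and 4 nucleotide supply genes, RRM1, RRM2, TYMS and TK1, a grouping made after their values were seen. RRM2, the regulated subunit of ribonucleotide reductase (ENSG00000171848, hg38 chromosome 2, 10122328 to 10131419, plus strand), stood at 503, 489 and 482 CPM in control, 704, 697 and 700 in TACI long and 439, 413 and 435 in TACI short. The groups did not overlap: TACI long was above and TACI short below control, with log2 fold changes of 0.51 ± 0.05 (SE, edgeR adjusted p = 1.54e-09) and -0.32 ± 0.05 (SE, edgeR adjusted p = 1.41e-06). RRM1, its large subunit, stood at 456, 458 and 448 CPM in control, 592, 582 and 589 in TACI long and 471, 462 and 476 in TACI short. It was higher in TACI long (0.37 ± 0.04 SE, edgeR adjusted p = 7.16e-08) and not called in TACI short (-0.08 ± 0.04 SE, edgeR adjusted p = 0.0978). TK1, the thymidine kinase of the salvage pathway, stood at 349, 327 and 330 CPM in control, 420, 406 and 419 in TACI long and 389, 373 and 366 in TACI short, with log2 fold changes of 0.31 ± 0.05 (SE, edgeR adjusted p = 5.39e-06) in TACI long and 0.04 ± 0.05 (SE, edgeR adjusted p = 0.5) in TACI short. TYMS, thymidylate synthase, shares 26.2% of its exon bases with ENOSF1 and TYMSOS, and libraries without strand cannot separate them. Its log2 fold change was 0.20 ± 0.05 (SE, edgeR adjusted p = 0.00112) in TACI long. The 4 that fell in TACI long were POLE, CDT1, ORC1 and CDC45. POLE, the catalytic subunit of the leading-strand polymerase, stood at 91.2, 92.9 and 92.0 CPM in control, 67.1, 74.9 and 75.9 in TACI long and 87.4, 87.3 and 76.0 in TACI short, with a log2 fold change of -0.34 ± 0.06 (SE, edgeR adjusted p = 4.17e-05) in TACI long. The call of CDC45 was lost when any 1 of the 3 control or 3 TACI long libraries was left out (adjusted p = 0.0511 to 0.14). That of ORC1 was lost without control replicate 1 or TACI long replicate 1 (adjusted p = 0.0802 to 0.0913).

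The G1 kinases and their D-type cyclins changed one by one rather than together. CDK6 rose in both lines, CDK4 fell in TACI short, and CCND3 fell in both. CDK6, the main D-cyclin kinase of many blood cells, stood at 153, 184 and 173 CPM in control, 235, 268 and 256 in TACI long and 259, 268 and 245 in TACI short. Every library of both TACI lines was above every control (log2 fold change 0.57 ± 0.06 SE, edgeR adjusted p = 6.31e-07 in TACI long and 0.47 ± 0.06 SE, edgeR adjusted p = 4.13e-06 in TACI short). CDK4 (ENSG00000135446, hg38 chromosome 12, 57747727 to 57756013, minus strand) stood at 131, 122 and 122 CPM in control, 121, 115 and 117 in TACI long and 86.1, 81.6 and 85.6 in TACI short. Its 3 TACI short values were the lowest, with a log2 fold change of -0.69 ± 0.05 (SE, edgeR adjusted p = 2.02e-11), and TACI long was not called (-0.08 ± 0.05 SE, edgeR adjusted p = 0.165). CDK4 shares 43.2% of its exon bases with TSPAN31, which had at most 19.0 CPM in any library, so its value is uncertain to that extent. CCND3, cyclin D3, a D-type cyclin of mature B cells, stood at 266, 254 and 247 CPM in control, 194, 188 and 193 in TACI long and 220, 217 and 212 in TACI short. Both TACI lines lay below control without overlap, by -0.42 ± 0.04 (SE, edgeR adjusted p = 3.25e-08) in TACI long and -0.37 ± 0.04 (SE, edgeR adjusted p = 1.27e-07) in TACI short. The 2 lines were not called apart in the main fit (0.05 ± 0.04 SE, edgeR adjusted p = 0.36), although their CPM values do not overlap. Over the alternative fits this difference ran from 0.00 to 0.18, and at least 1 of them called it. With CCND2 near 0, the remaining D-type cyclin gene is CCND1, which is not a member. It stood at 6.85, 7.88 and 7.95 CPM in control, 5.03, 4.36 and 3.52 in TACI long and 27.9, 43.9 and 38.4 in TACI short. TACI short was above and TACI long below every control library, with log2 fold changes of -0.81 ± 0.20 (SE, edgeR adjusted p = 0.014) in TACI long and 2.14 ± 0.18 (SE, edgeR adjusted p = 3.72e-05) in TACI short.

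The CDK inhibitors carried the widest changes among the regulators, and CDKN1B and CDKN2C went opposite ways in the 2 lines. CDKN1B, which encodes p27 (ENSG00000111276, hg38 chromosome 12, 12715058 to 12722371, plus strand), stood at 27.1, 27.9 and 26.7 CPM in control, 13.2, 13.9 and 14.0 in TACI long and 57.0, 56.3 and 56.6 in TACI short. TACI long was lowest, control lay between and TACI short was highest, with no overlap of any 2 groups. The log2 fold change was -0.99 ± 0.05 (SE, edgeR adjusted p = 1.54e-13) in TACI long and 0.93 ± 0.05 (SE, edgeR adjusted p = 8.88e-14) in TACI short. CDKN2C, which encodes p18, an inhibitor of CDK4 and CDK6 (ENSG00000123080, hg38 chromosome 1, 50960745 to 50974633, plus strand), stood at 118, 120 and 116 CPM in control, 251, 248 and 248 in TACI long and 114, 110 and 107 in TACI short. Every TACI long library was above every other library, while TACI short lay just below control. Its log2 fold change was 1.08 ± 0.04 (SE, edgeR adjusted p = 1.16e-15) in TACI long and -0.23 ± 0.04 (SE, edgeR adjusted p = 9.34e-05) in TACI short. Over all the alternative fits the log2 fold change of CDKN1B stayed between -1.01 and -0.96 in TACI long and between 0.90 and 1.06 in TACI short. That of CDKN2C in TACI long was never below 1.06.

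CDKN1A, which encodes p21 and is a target of p53 (ENSG00000124762, hg38 chromosome 6, 36676460 to 36687339, plus strand), stood apart from these by its spread. It stood at 11.7, 16.1 and 16.8 CPM in control, 13.7, 12.2 and 8.25 in TACI long and 14.6, 67.8 and 63.4 in TACI short. TACI short replicate 1 lies within the range of the controls, and replicates 2 and 3 lie far above every other library. The fitted log2 fold change in TACI short was 1.57 ± 0.56 (SE, edgeR adjusted p = 0.0486). The call was lost when any 1 library other than TACI short replicate 1 was left out (adjusted p = 0.0698 to 0.137). Without TACI short replicates 2 and 3, which leaves 1 TACI short library, the log2 fold change was -0.11. The myeloid marker sum moved with it, at 28.67 CPM in TACI short replicate 1 against 125.0 and 121.1 CPM in replicates 2 and 3, with 5 of 8 tested markers called higher in TACI short. CSF1R, the receptor of a macrophage growth factor, was the most abundant of these at a mean of 44.9 CPM in TACI short and 6.94 in control. S100A8 had no count in any library, and MPO had a mean of at most 0.0216 CPM in any group. Among 6 epithelial and fibroblast markers, whose sum was 80.83, 89.5 and 87.98 CPM in the 3 TACI short libraries and 98.04 to 100.2 in control, the collagen genes COL1A1 and COL1A2 had the pattern of CDKN1A. COL1A1 stood at 1.5, 2.11 and 2.61 CPM in control, 2.55, 2.35 and 1.53 in TACI long and 3.24, 11 and 10.2 in TACI short (1.83 ± 0.49 SE, edgeR adjusted p = 0.0172 in TACI short), and COL1A2 at 0.913, 1.13 and 1.44 CPM in control, 0.993, 0.921 and 0.51 in TACI long and 0.653, 3.99 and 4.11 in TACI short (1.19 ± 0.65 SE, edgeR adjusted p = 0.158). KRT18 was at 0 in 8 of the 9 libraries. The part of these transcripts in the CDKN1A result was not tested. CDKN1B did not follow this pattern, with 57.0, 56.3 and 56.6 CPM in the 3 TACI short libraries.

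**Figure D3:**
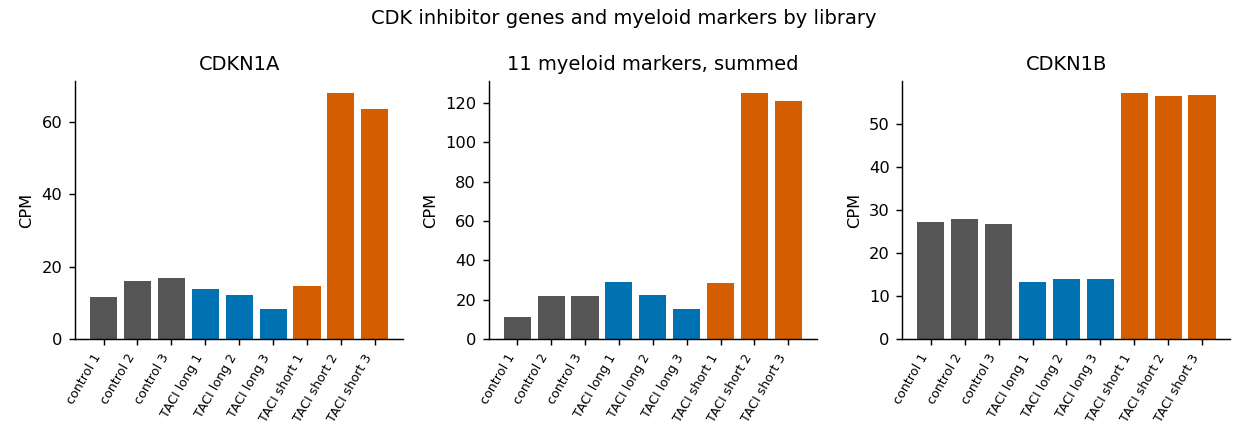
Bars give CPM in each of the 9 libraries for CDKN1A, for the sum of 11 myeloid markers and for CDKN1B, on axes that start at 0. CDKN1A and the marker sum are high in TACI short replicates 2 and 3 and not in replicate 1, while CDKN1B is about equal in the 3 TACI short libraries.

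Among E2F1, E2F2 and RB1, E2F2 changed most. E2F2, an activating E2F factor, stood at 115, 117 and 116 CPM in control, 153, 165 and 161 in TACI long and 149, 144 and 136 in TACI short. Both TACI lines were above control, TACI long without overlap with TACI short (0.46 ± 0.05 SE, edgeR adjusted p = 7.86e-09 in TACI long and 0.18 ± 0.05 SE, edgeR adjusted p = 0.00176 in TACI short). E2F1 stood at 135, 129 and 134 CPM in control, 152, 151 and 152 in TACI long and 168, 154 and 153 in TACI short, with log2 fold changes of 0.19 ± 0.05 (SE, edgeR adjusted p = 0.00214) in TACI long and 0.13 ± 0.05 (SE, edgeR adjusted p = 0.0241) in TACI short. RB1, the brake on E2F factors, stood at 321, 354 and 329 CPM in control, 374, 390 and 373 in TACI long and 341, 337 and 341 in TACI short, with 0.18 ± 0.04 (SE, edgeR adjusted p = 0.00101) in TACI long and -0.11 ± 0.04 (SE, edgeR adjusted p = 0.0346) in TACI short. Its CPM values in TACI short lie inside the control range, and with library totals the direction there turned (0.02). The TACI short call of E2F1 was lost without any 1 control library, TACI long replicate 1 or 3, or TACI short replicate 1 (adjusted p = 0.0634 to 0.247). The RB1 call there was lost without control replicate 2 or TACI short replicate 2 or 3 (adjusted p = 0.0698 to 0.172).

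The later cyclins and CDK1 were higher in TACI long. In TACI short CCNB2 and CDK1 were higher too and CCNA2 was lower. CCNB2, cyclin B2, stood at 83.2, 85.3 and 79.3 CPM in control, 100, 101 and 98.9 in TACI long and 123, 122 and 126 in TACI short. TACI short was highest and control lowest, with no overlap of any 2 groups (0.28 ± 0.04 SE, edgeR adjusted p = 9.63e-06 in TACI long and 0.45 ± 0.04 SE, edgeR adjusted p = 3.19e-09 in TACI short). CDK1, the kinase that drives entry into mitosis, stood at 219, 218 and 211 CPM in control, 259, 257 and 246 in TACI long and 306, 288 and 308 in TACI short. It showed the same order of groups (0.23 ± 0.05 SE, edgeR adjusted p = 0.000138 in TACI long and 0.35 ± 0.05 SE, edgeR adjusted p = 4.85e-07 in TACI short). CCNA2, cyclin A2, rose in TACI long by 0.13 ± 0.04 (SE, edgeR adjusted p = 0.0143), and that call was lost without any 1 control library or 1 of TACI long replicates 1 and 3 (adjusted p = 0.0606 to 0.114). In TACI short CCNA2 fell (-0.17 ± 0.04 SE, edgeR adjusted p = 0.0012), and with library totals that call was lost (-0.04, adjusted p = 0.19). CCNB1, cyclin B1, rose in TACI long by 0.17 ± 0.05 (SE, edgeR adjusted p = 0.0031), and leaving out control replicate 2 ended the call (adjusted p = 0.053). In TACI short CCNB1 was not called (-0.03 ± 0.05 SE, edgeR adjusted p = 0.641). CCNE2, an E-type cyclin, stood at 20.7, 20.6 and 19.3 CPM in control, 25.8, 28.2 and 26.7 in TACI long and 22.6, 22.7 and 23.1 in TACI short (0.41 ± 0.05 SE, edgeR adjusted p = 6.88e-07 in TACI long). It shares 37.1% of its exon bases with INTS8 and another gene, of at most 121 CPM, so that its value is uncertain. CCNE1 and CDK2, the partners at the start of S phase, were called in neither line, with log2 fold changes of 0.06 and -0.09 in TACI long and 0.05 and 0.00 in TACI short. Over the 16 tested regulators, 10 rose and 2 fell in TACI long (62.5% and 12.5%, median 0.18), and 7 rose and 5 fell in TACI short (43.8% and 31.2%, median 0.05), beside the shares of all tested genes given above. With library totals the TACI short counts were 11 and 3.

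**Figure D4:**
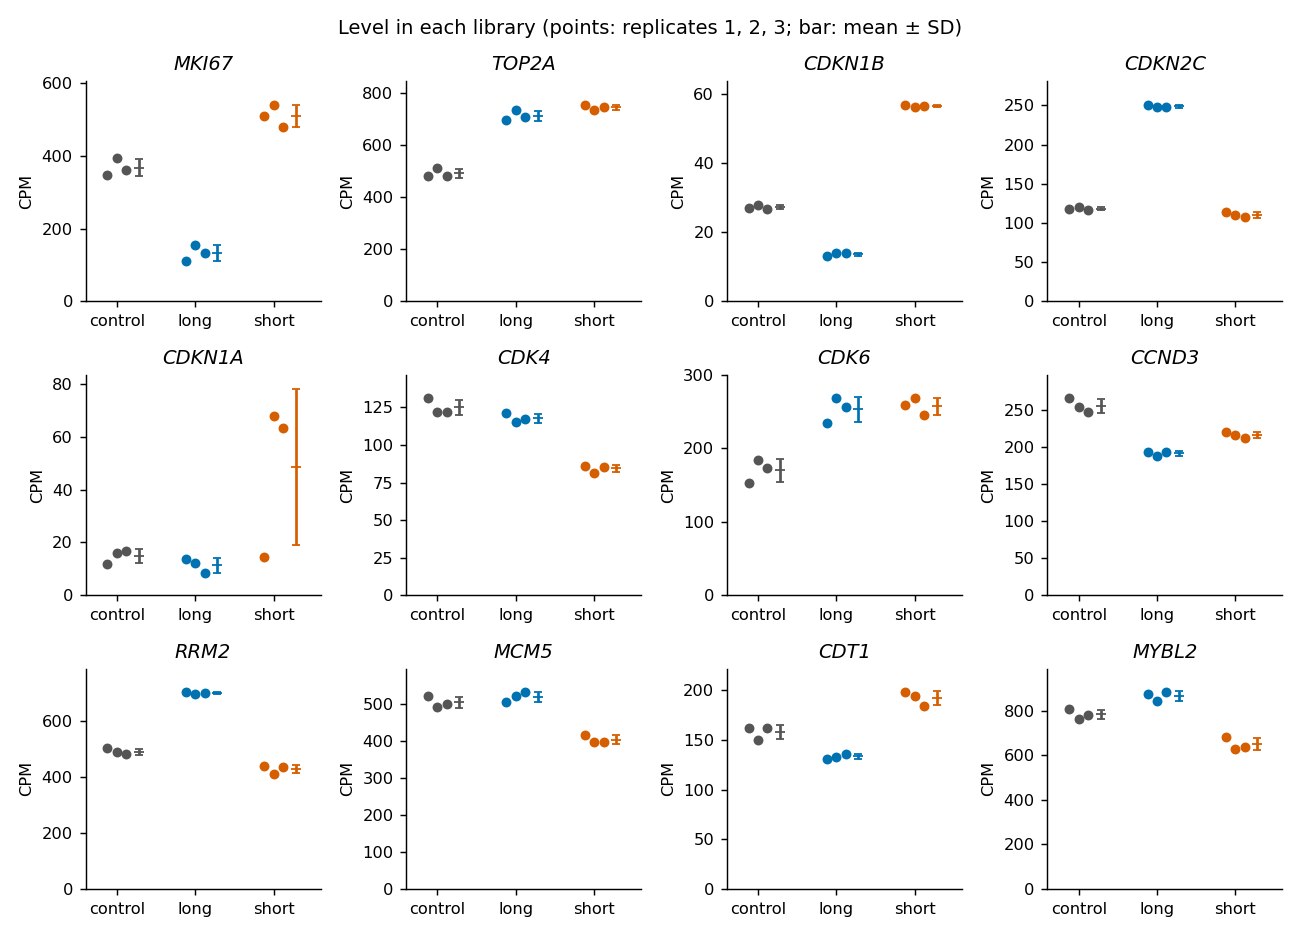
CPM of 12 members in each library (points, replicates 1 to 3 from left to right) with the mean ± SD beside them; each axis starts at 0. CDKN1B is lowest in TACI long and highest in TACI short, CDKN2C and RRM2 are highest in TACI long, MKI67 is lowest in TACI long, and the 3 TACI short values of CDKN1A lie far apart.

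Most mitotic members rose in TACI long cells. Of 16, 10 rose, 1 (MKI67) fell and 5 were not called, where 25.2% of all tested genes rose, and their median log2 fold change was 0.16. BIRC5, the survivin subunit of the chromosomal passenger complex, stood at 285, 273 and 278 CPM in control, 433, 419 and 426 in TACI long and 334, 308 and 330 in TACI short. TACI long was above all other libraries (0.61 ± 0.05 SE, edgeR adjusted p = 1.82e-10), and TACI short was not called against control (0.09 ± 0.05 SE, edgeR adjusted p = 0.0985). Over the alternative fits the TACI short value ran from 0.04 to 0.22, and at least 1 of those fits called it. CDC20, the activator of the anaphase-promoting complex, stood at 237, 224 and 229 CPM in control, 310, 313 and 318 in TACI long and 293, 275 and 280 in TACI short. Both lines were above control without overlap (0.45 ± 0.05 SE, edgeR adjusted p = 1.67e-08 in TACI long and 0.17 ± 0.05 SE, edgeR adjusted p = 0.00245 in TACI short), although the TACI short call was lost without control replicate 2 (adjusted p = 0.0763). The kinases AURKA and PLK1, the checkpoint gene MAD2L1 and the centromere histone CENPA rose in TACI long by log2 fold changes of 0.41, 0.36, 0.35 and 0.44. In TACI short none of these 4 was called in the main fit, with log2 fold changes of 0.00, 0.08, 0.10 and 0.03. Over the alternative fits these values ran from -0.05 to 0.13, 0.04 to 0.21, 0.06 to 0.23 and -0.02 to 0.15. Each of the 4 was called in at least 1 of those fits. BUB1, a checkpoint kinase, rose in both (0.17 ± 0.04 SE, edgeR adjusted p = 0.00139 in TACI long and 0.21 ± 0.04 SE, edgeR adjusted p = 0.000125 in TACI short). AURKB, BUB1B and TTK were called in neither line in the main fit, with log2 fold changes of 0.05, -0.01 and 0.10 in TACI long and 0.03, 0.10 and -0.09 in TACI short. In TACI short the alternative fits ran from -0.02 to 0.16, 0.06 to 0.23 and -0.12 to 0.04.

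MKI67 encodes Ki-67, the coat protein of mitotic chromosomes used in pathology as the mark of dividing cells (ENSG00000148773, hg38 chromosome 10, 128096659 to 128126385, minus strand). It stood at 348, 394 and 361 CPM in control, 110, 155 and 133 in TACI long and 509, 541 and 479 in TACI short. The 3 groups do not overlap, since each TACI long value is below every control value, and each TACI short value is above. The log2 fold change in TACI long was -1.47 ± 0.12 (SE, edgeR adjusted p = 4.81e-05), which ranked 553 from the lowest of 16672 tested genes. It stayed between -1.58 and -1.35 over all the alternative fits. No other mitotic member fell in TACI long, and the lowest log2 fold change among 40 further mitotic genes, given below, was -0.24. The rise in TACI short was 0.34 ± 0.12 (SE, edgeR adjusted p = 0.039). This call was lost when any 1 of the control libraries, TACI long replicate 3 or any 1 of the TACI short libraries was left out (adjusted p = 0.056 to 0.129).

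MKI67, CENPF and CENPE, which have the longest exon lengths of the mitotic members (12807, 11690 and 9444 bases), also had the largest standard errors of this group. CENPF, a kinetochore protein, stood at 137, 167 and 161 CPM in control, 138, 169 and 159 in TACI long and 232, 236 and 217 in TACI short. Replicate 1 was the lowest library in control and in TACI long, and TACI short was above every other library (0.43 ± 0.09 SE, edgeR adjusted p = 0.00282), while TACI long was not called (0.00 ± 0.09 SE, edgeR adjusted p = 0.976). CENPE, the kinetochore motor, stood at 70.3, 83.1 and 77.1 CPM in control, 64.0, 75.0 and 70.9 in TACI long and 96.4, 98.1 and 90.5 in TACI short. It also had its lowest control and TACI long value in replicate 1, as did MKI67 and CDK6 (exon length 12260 bases). Whether length bears on these values was not tested. Its log2 fold change in TACI short was 0.18 ± 0.06 (SE, edgeR adjusted p = 0.016), a call lost without control replicate 1 or 3 or TACI short replicate 1 or 2 (adjusted p = 0.0645 to 0.144).

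TOP2A rose in both lines and MYBL2 fell in TACI short. TOP2A, the topoisomerase that untangles sister chromatids (ENSG00000131747, hg38 chromosome 17, 40388516 to 40417950, minus strand), stood at 482, 512 and 482 CPM in control, 695, 733 and 708 in TACI long and 755, 736 and 745 in TACI short. Both TACI lines lay above control without overlap (0.53 ± 0.04 SE, edgeR adjusted p = 3.11e-10 in TACI long and 0.47 ± 0.04 SE, edgeR adjusted p = 1.67e-09 in TACI short). MYBL2, the B-MYB factor that acts between the 2 gene waves, stood at 806, 763 and 781 CPM in control, 875, 843 and 883 in TACI long and 682, 630 and 639 in TACI short. TACI short was below every other library (-0.40 ± 0.05 SE, edgeR adjusted p = 2.45e-07), the single called fall among the mitotic members in that line. TACI long was higher (0.15 ± 0.05 SE, edgeR adjusted p = 0.0146), a call lost without 1 of control replicates 2 and 3 or of TACI long replicates 1 and 3 (adjusted p = 0.0887 to 0.138). FOXM1, the forkhead factor of the mitotic genes, stood at 131, 136 and 135 CPM in control, 144, 149 and 146 in TACI long and 149, 148 and 137 in TACI short. Its log2 fold change was 0.13 ± 0.04 (SE, edgeR adjusted p = 0.0186) in TACI long, a call lost without any 1 control or TACI long library (adjusted p = 0.0562 to 0.107). In TACI short it was -0.02 ± 0.04 (SE, edgeR adjusted p = 0.716), and the direction turned with upper-quartile factors (0.06) and library totals (0.11). Of the 16 mitotic members 6 rose and 1 fell in TACI short (median 0.09). The share that rose, 37.5%, is near the 31.5% of all tested genes, and the share that fell, 6.25%, stands beside 31.1% of all tested genes. The higher count was 13 with upper-quartile factors, 14 with library totals and 10 with a filter of 1 CPM in 3 libraries.

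**Figure D5:**
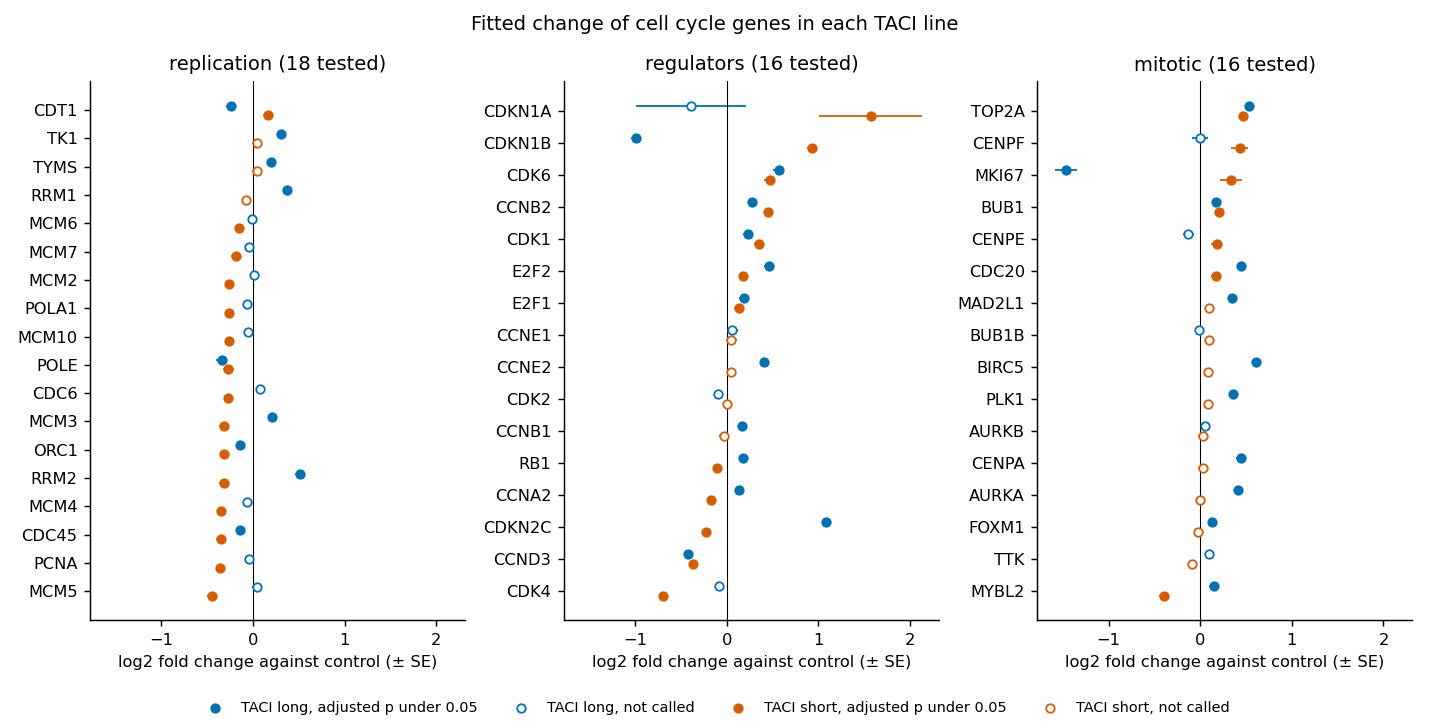
Fitted log2 fold change against control (± SE, TMM scaling) of the 50 tested members by role, TACI long in blue and TACI short in orange; filled points have an adjusted p under 0.05. Of 18 replication members 14 are called left of 0 in TACI short; library totals would shift every TACI short point right by 0.13, which turns points just left of 0 such as RB1 and FOXM1.

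Setting the 2 lines against each other on the fitted scale, TACI short had less RNA than TACI long for most members. Of the 50, 32 were lower and 9 higher in TACI short. That is 82.0% called, against 68.8% of all tested genes, of which 33.6% were lower and 35.2% higher. The median log2 fold change of the members was -0.20 (all genes 0.05). At least 1.5-fold called differences numbered 6 (34.2% of all genes), and CPM groups did not overlap for 40 members (71.6% of all genes). By role, 16 of 18 replication members were lower and 1 higher (median -0.24), and 9 of 16 mitotic members were lower and 4 higher (median -0.17). With upper-quartile factors these medians were -0.15 and -0.08, and with library totals -0.11 and -0.04, with 7 mitotic members lower and 6 higher. Of 16 regulators, 7 were lower and 4 higher (median -0.08, and 0.01 with upper-quartile factors and 0.05 with library totals). With library totals 6 regulators were lower and 6 higher. With library totals the replication count was 9 lower and 2 higher. Without TACI short replicates 2 and 3, which leaves 1 TACI short library, the replication median was -0.17. Calls over all genes were 5870 higher and 5604 lower, against 6820 and 4770 with upper-quartile factors and 7214 and 4359 with library totals.

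The widest of these differences belonged to genes already described. CDKN1B was higher in TACI short by a log2 fold change of 1.92 ± 0.05 (SE, edgeR adjusted p = 2.47e-19), MKI67 by 1.81 ± 0.12 (SE, edgeR adjusted p = 8.53e-06), and CDKN1A by 1.95 ± 0.58 (SE, edgeR adjusted p = 0.022). The CDKN1A call was lost without any 1 TACI long library or TACI short replicate 2 or 3 (adjusted p = 0.0506 to 0.0757). Without both of those replicates the log2 fold change was 0.27. CDKN2C was lower by -1.31 ± 0.04 (SE, edgeR adjusted p = 1.42e-17), RRM2 by -0.84 ± 0.05 (SE, edgeR adjusted p = 1.25e-13) and CDK4 by -0.61 ± 0.05 (SE, edgeR adjusted p = 1.18e-10). MCM3, a helicase subunit, stood at 322, 317 and 309 CPM in control, 356, 371 and 365 in TACI long and 290, 276 and 266 in TACI short, so that TACI long was above and TACI short below control. The lines differed by -0.52 ± 0.05 (SE, edgeR adjusted p = 4.76e-10). CENPA, the histone that marks the centromere, stood at 26.9, 26.6 and 25.6 CPM in control, 36.1, 36.6 and 34.7 in TACI long and 30.3, 29.3 and 28.4 in TACI short, with TACI long above both other groups (-0.42 ± 0.05 SE, edgeR adjusted p = 1.48e-07). CDT1, CENPF and CENPE were higher in TACI short by log2 fold changes of 0.40, 0.42 and 0.31. MYBL2 and BIRC5 were lower, at -0.54 and -0.52. The call of CDK1 (0.11) was lost without any 1 library but TACI short replicate 2 (adjusted p = 0.0935 to 0.286). That of BUB1B (0.11) was lost without any 1 library but TACI short replicates 2 and 3 (adjusted p = 0.0743 to 0.275).

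Further genes of the same pathways, from lists drawn up beside the members, give the background of each role. Of 43 further replication genes, 26 fell and 6 rose in TACI short (60.5% and 14.0%, against 31.1% and 31.5% of all tested genes), with a median of -0.19. In TACI long 12 fell and 9 rose (27.9% and 20.9%, near the 25.9% and 25.2% of all tested genes), with a median of -0.04. UNG, the uracil glycosylase that clears uracil from DNA, had a log2 fold change of -1.08 ± 0.06 (SE, edgeR adjusted p = 7.72e-12) in TACI short. ORC5, an origin recognition subunit, had -0.54 ± 0.05 (SE, edgeR adjusted p = 7.44e-10) and the clamp loader subunit RFC3 -0.47 ± 0.04 (SE, edgeR adjusted p = 2.34e-09). In TACI long the GINS helicase subunit GINS3 rose by 0.45 ± 0.05 (SE, edgeR adjusted p = 1.53e-07). The histone chaperone subunit CHAF1A had -0.37 ± 0.05 (SE, edgeR adjusted p = 4.46e-07). Of 40 further mitotic genes, 29 rose and 2 fell in TACI long (72.5% and 5.0%, median 0.22), and 18 rose and 8 fell in TACI short (45.0% and 20%, median 0.05). CKAP2, a spindle protein, had 0.78 ± 0.04 (SE, edgeR adjusted p = 4.79e-13) in TACI long, the kinesin KIF20A 0.58 ± 0.04 (SE, edgeR adjusted p = 1.05e-10) and the spindle midzone gene PRC1 0.51 ± 0.04 (SE, edgeR adjusted p = 8.84e-10). In TACI short the centrosome kinase NEK2 had 0.62 ± 0.05 (SE, edgeR adjusted p = 2.18e-10) and PTTG1, which encodes securin, 0.53 ± 0.04 (SE, edgeR adjusted p = 1.7e-10). ESPL1, which encodes separase, the protease that securin inhibits, had -0.58 ± 0.05 (SE, edgeR adjusted p = 2.5e-10). Between the lines, 21 of the 43 replication genes were lower and 9 higher in TACI short (48.8% and 20.9%, median -0.12), where 33.6% and 35.2% of all tested genes were. Of the 40 mitotic genes 24 were lower and 7 higher (60% and 17.5%, median -0.18).

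Read by promoter letters, the members with CHR letters rose more often in both lines than they fell. Of the 11 with CHR letters, 8 rose and 1 fell in TACI long, and 6 rose and 0 fell in TACI short (edgeR quasi-likelihood test). Of the 31 without them, 13 rose and 6 fell in TACI long, and 8 rose and 18 fell in TACI short. Of the 14 with E2F-type letters, 6 rose and 2 fell in TACI long and 4 rose and 8 fell in TACI short. Of the 28 without, 15 rose and 5 fell in TACI long, and 10 rose and 10 fell in TACI short. Of all tested genes, 25.2% rose and 25.9% fell in TACI long, and 31.5% rose and 31.1% fell in TACI short. Against TACI long, 5 of the 11 with CHR letters were higher and 5 lower in TACI short. Of the 14 with E2F-type letters 2 were higher and 10 lower, beside 35.2% and 33.6% of all tested genes. The counts by letters are given on the fitted scale only. These counts follow the roles, since 8 of the 11 genes with CHR letters are mitotic members and 10 of the 14 with E2F-type letters are replication members, and no test was made of them. MKI67, which carries 2 CHR matches as printed above, is the 1 gene of the 11 that fell in TACI long, and CDT1 carries E2F-type letters but rose in TACI short.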

How the data were processed

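Polyadenylated RNA of 9 libraries was measured, 3 per group. The files hold raw counts per gene, as the authors deposited them, in columns laid out as featureCounts writes them; the submitters' processing notes name FastQC, STAR 2.4.0h, HTSeq and hg38. The annotation release, strand setting and any filter are not given in the sources used here, and the Nextera XT kit of the labels' protocols does not keep strand, so overlapping genes cannot be told apart. After filterByExpr (minimum count 10, total 15) and TMM scaling, edgeR 4.0.16 (R 4.3.3) fitted 1 robust quasi-likelihood model to the 9 libraries, with 6 residual degrees of freedom. P-values were adjusted over 16672 genes by Benjamini-Hochberg, and a call is an adjusted p under 0.05. SE is the log2 fold change over the square root of F. CPM and TPM use library totals and the exon lengths in the files. Replicates differed beyond sampling noise (chi-square per degree of freedom 2.45 to 18.2). The fit was tested on simulated data. Alternatives were DESeq2 1.42.0, limma-voom (limma 3.58.1), other scalings and filters, the compared groups alone, the replicate block and left-out libraries. Figures used matplotlib 3.10.9. The members, the further gene lists, the marker lists and the rule for named genes (a fixed set, and per role and comparison up to 3 called members in each direction by size) were chosen with earlier results of these data known. Sequences come from RefSeq. The values of 1 gene named by the rule are not reported here.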

Additional observations from a re-analysis of the deposited data

How the results depend on the processing

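Of 107 calls of members over the 3 comparisons, 16 were lost when 1 library was left out, 32 under at least 1 alternative fit, and 0 changed sign while called. Calls gained under an alternative fit are not in these counts. For TACI short against control, the members higher numbered 26 with upper-quartile factors, 28 with library totals and 9 to 16 with 1 library left out, the lowest without control replicate 2. Their median log2 fold change was 0.08, 0.13, 0.04 with a filter of 1 CPM in 3 libraries, 0.04 without TACI short replicates 2 and 3, and -0.03 to 0.04 with 1 library left out. Mitotic members higher numbered 13, 14 and, with the 1 CPM filter, 10; with library totals 11 regulators were higher and 3 lower. For TACI short against TACI long, the members' median was -0.11 with upper-quartile factors, -0.07 with library totals, -0.16 with the 1 CPM filter, -0.15 without TACI short replicates 2 and 3 and -0.24 to -0.16 with 1 library left out; with library totals 14 members were higher and 9 replication members lower. Over all fits, at 2 decimals, 3 members had both signs in TACI long against control, 13 in TACI short against control and 5 between the lines. Among the results named by the rule, those that turned in TACI short against control were FOXM1 (0.06 with upper-quartile factors, 0.11 with library totals, 0.02 with the 1 CPM filter, 0.06 without TACI short replicates 2 and 3, 0.02 without replicate 3), RB1 (0.02 with library totals) and CDKN1A (-0.11 without TACI short replicates 2 and 3). In TACI short against TACI long they were E2F1 (0.03, 0.07 and, without those replicates, 0.05), TOP2A (0.03 and 0.07) and CDK6 (0.02 with library totals). MCM2 in TACI long turned to a value that rounds to 0.00 without control replicate 2. The scalings differ by their construction; the cause of the other differences was not tested. Of 2120 values of named results over 20 alternatives, 2016 kept direction and side of the threshold.

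With the replicate number as a block, 26 members were higher and 7 lower in TACI long, 16 and 21 in TACI short, and 8 and 32 between the lines. Same-numbered libraries had correlations of deviations from -0.399 to 0.496, so the numbers are not taken to pair the samples. Under the block mitotic members higher in TACI short numbered 9, and CDKN1A in TACI short had a log2 fold change of 1.46 (edgeR adjusted p = 0.0916) and against TACI long 1.80 (edgeR adjusted p = 0.0557).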

Other observations

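Among 39 further cell cycle regulators (37 tested), 21 rose and 11 fell in TACI long (56.8% and 29.7%, against 25.2% and 25.9% of all tested genes, median log2 fold change 0.14; edgeR quasi-likelihood test). In TACI short 15 rose and 12 fell (40.5% and 32.4%, against 31.5% and 31.1% of all tested genes, median 0.09), with the same controls, and the share that fell is near that of all genes. E2F3, an activating E2F factor, had a log2 fold change of 0.88 in TACI long and -0.32 in TACI short, and TFDP2, a dimer partner of E2F factors, -0.32 and 0.76. CDC25B, a phosphatase that activates CDK1, had 0.78 and 0.15. CDKN2D, which encodes the inhibitor p19, had 0.47 and 1.03. Of 12 genes of the p53 response, 8 rose and 2 fell in TACI long (66.7% and 16.7%), and 8 rose and 3 fell in TACI short (66.7% and 25.0%). BBC3, which encodes the death factor PUMA, had -1.13 in TACI long and 1.52 in TACI short, RRM2B, the p53-controlled reductase subunit, 0.77 and 0.52, and GADD45A 0.06 and 0.89. MDM2, which encodes the ubiquitin ligase of p53, had 0.29 and -0.32.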
